A study of Mus musculus with 2 samples.

Results

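Interferon-stimulated genes are genes whose RNA rises when a cell senses interferon. A list of 39 such genes was followed gene by gene through 2 single-cell libraries of mouse bone, and 37 of the 39 were among the 21905 genes with values. The other 2, Mx1 and Mx2, were not analysed here. The list was set by gene name and not by the size of any change, although it was chosen with earlier results of these libraries known. The question was in which cells the members differed after doxorubicin, in how many of those cells, and which members did not follow the rest.

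Interferons are secreted when a cell detects foreign or misplaced nucleic acid. Type I interferon binds its receptor, the kinases JAK1 and TYK2 are activated, and a complex that holds STAT2 and IRF9 forms and binds the interferon-stimulated response element (ISRE) in the promoters of target genes. Interferon gamma acts mainly at a different element named GAS. In bone marrow, Cxcl12-abundant reticular (CAR) cells are stromal cells of the adipocyte lineage that support blood-forming cells, and DNA damage is a known trigger of interferon signalling in many cell types.

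The cells came from femurs and tibias of female mice 12 weeks old that received either vehicle (Veh) or the anthracycline doxorubicin (Doxo, 10 mg/kg), a drug that damages DNA, with bones taken 96 h later. Blood cells (CD45, CD71 and Ter119) had been depleted before 10x Genomics 3′ libraries were made, and the labels add CD31, a marker of endothelial cells. Each treatment gave 1 library of 2488 cells, and the number and strain of the mice behind each library are not given in the sources used here. With 1 library per treatment there was no replicate check: no test between treatments was made, treatment and library cannot be told apart, and all intervals given (95%) describe counting error alone.

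The values were turned back into whole UMIs (unique molecular identifiers, 1 per RNA molecule counted). In all there were 24859695 UMIs in Veh (median per cell 8693) and 20792012 in Doxo (median per cell 7347.5), and 4 cell barcodes occurred in both. Cells were clustered without the interferon genes, and 6 classes were named from marker genes. CAR-like cells numbered 363 in Veh and 419 in Doxo, and all 8 of their markers (among them Cxcl12, Lepr and Adipoq) stood above the other cells. Bone and cartilage fibroblast-like cells numbered 1097 and 1353, arteriolar and endosteal fibroblast-like cells 423 and 253, osteoblast-like cells 221 and 136, chondrocyte-like cells 237 and 202, and endothelial-like cells 103 and 69 in the same order. A cluster of 44 and 56 cells stayed unnamed. All 8 endothelial markers were above the other cells in the endothelial-like class, so cells of that kind were present.

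The promoters of 6 members are shown first, to show where the elements of the response lie in genes with large, small and opposite differences. The ISRE was searched as GAAA, any 2 bases and GAAA again, and GAS as TTC, any 3 bases and GAA, on both strands, in RefSeq windows (GRCm38.p6) from 250 bases before to 50 bases after each gene's start. The printed runs cover the 180 bases from 200 to 21 bases before the start, 5′ to 3′ on the gene's strand. Capitals mark the ISRE in the first 5 sequences, from genes with large differences in CAR-like cells (Isg15, Ifit1, Ifit3 and Ifit3b) and from a gene with nearly none (Bst2), and the GAS element in Irf1, which was lower in Doxo. An ISRE on the opposite strand reads TTTC, any 2 bases and TTTC.
Isg15 (chr4:156200839-156201018, minus strand): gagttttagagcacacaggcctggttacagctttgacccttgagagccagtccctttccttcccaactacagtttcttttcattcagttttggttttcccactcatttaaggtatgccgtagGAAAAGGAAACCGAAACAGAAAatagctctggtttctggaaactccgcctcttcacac
Ifit1 (chr19:34640689-34640868, plus strand): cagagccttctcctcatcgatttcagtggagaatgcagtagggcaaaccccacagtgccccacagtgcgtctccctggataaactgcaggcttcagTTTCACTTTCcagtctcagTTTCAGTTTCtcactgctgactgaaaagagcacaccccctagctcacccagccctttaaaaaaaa
Ifit3 (chr19:34583329-34583508, plus strand): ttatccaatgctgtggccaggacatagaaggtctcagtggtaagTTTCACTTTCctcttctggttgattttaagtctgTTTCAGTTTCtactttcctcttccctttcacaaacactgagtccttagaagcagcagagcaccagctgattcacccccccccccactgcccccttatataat
Ifit3b (chr19:34607757-34607936, plus strand): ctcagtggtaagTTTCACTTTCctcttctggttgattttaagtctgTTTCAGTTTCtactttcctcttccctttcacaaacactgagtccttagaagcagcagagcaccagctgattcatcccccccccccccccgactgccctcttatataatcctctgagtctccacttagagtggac
Bst2 (chr8:71537493-71537672, minus strand): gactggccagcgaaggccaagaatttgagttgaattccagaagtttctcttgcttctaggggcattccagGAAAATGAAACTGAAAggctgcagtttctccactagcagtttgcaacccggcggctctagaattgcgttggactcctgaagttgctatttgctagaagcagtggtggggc
Irf1 (chr11:53769814-53769993, plus strand): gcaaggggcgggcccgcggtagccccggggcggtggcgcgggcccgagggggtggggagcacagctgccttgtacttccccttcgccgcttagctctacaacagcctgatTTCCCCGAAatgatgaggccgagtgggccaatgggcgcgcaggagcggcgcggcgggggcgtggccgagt

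Isg15 carried 3 overlapping ISRE matches, starting 78, 72 and 66 bases before the start, and Ifit1 carried 2, at 104 and 85 bases. Bst2, whose level barely differed between the libraries, carried 2 overlapping matches at 130 and 124 bases, so a match was not found only beside large differences. Irf1 and Plscr1, the only members lower in Doxo CAR-like cells, had no ISRE match in these windows, and each had 1 GAS match 90 bases before the start. Neither trait was particular to them. Oasl2, Ifi44, Lgals3bp and Irf7, all at least 2-fold higher in Doxo, had no ISRE match either, and Oas1a, also at least 2-fold higher, had a GAS match. Of the 39 members 29 had an entry, with 32 windows between them, and 15 windows (46.9%) held an ISRE against 3.44% of all 32851 windows. Among members at least 2-fold higher in Doxo CAR-like cells the ISRE stood in 7 of 11 windows, and among the others with enough UMIs in 8 of 21. GAS stood in 28.1% of the members' windows and in 8.30% of all. Dhx58, Ifi27, Mx1, Mx2, Oas2, Parp9, Parp14, Rtp4, Usp18 and Zbp1 had no entry.

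In CAR-like cells the members were higher in Doxo almost throughout. Of the 37 members, 36 had at least 10 UMIs in the class over both libraries. Of these 36, 34 were higher in Doxo, where 54.5% of all 12644 genes with as many UMIs were higher. At least 2-fold higher were 13 members (36.1%), against 4.95% of all genes, and none was 2-fold lower, against 5.02%. The median log2 ratio of Doxo to Veh was 0.63 over the members and 0.05 over all genes. Oas2, an enzyme that makes the 2-5A signal for RNA decay, was the member without enough UMIs: it had 0 in both libraries.

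**Figure D1:**
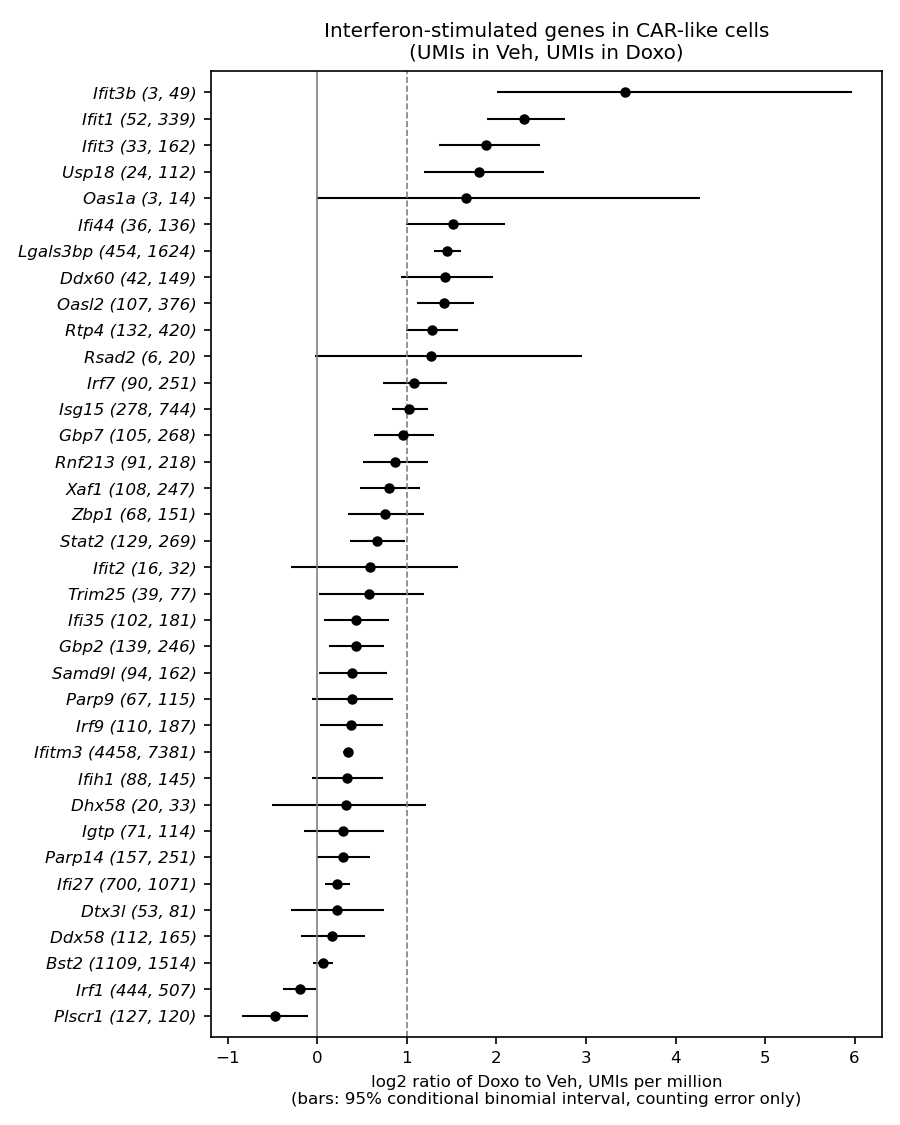
Log2 ratio of Doxo to Veh in CAR-like cells (x axis) for the 36 members with at least 10 UMIs (y axis, UMIs in Veh and in Doxo in brackets). Points are ratios of CPM and bars 95% intervals of counting error. The dashed line marks a 2-fold difference, which 13 members reach, and only Irf1 and Plscr1 lie below 0.

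The IFIT genes, whose proteins bind foreign RNA and block its translation, had the highest ratios of any role. Ifit1 had 52 UMIs, found in 31 Veh CAR-like cells, against 339, found in 141 Doxo cells. Per 1000000 UMIs of the class (CPM) that is 20.9 in Veh and 104 in Doxo, with a log2 ratio of 2.30 (1.89 to 2.76). Ifit3 went from 33 to 162 UMIs, or from 13.3 to 49.8 CPM, a log2 ratio of 1.89 (1.36 to 2.49). Ifit3b had 3 UMIs against 49, and its log2 ratio was 3.43, whose interval ran from 2.01 to 5.97. Ifit3 and Ifit3b transcripts are 98.0% identical over 1697 aligned bases, so the split of reads between them is uncertain. Ifit2 was scarce at 16 and 32 UMIs, and its log2 ratio of 0.59 had an interval that held 0 (-0.30 to 1.57). All 4 genes lie side by side on chromosome 19 of GRCm38, between positions 34550694 and 34650009, and these neighbours had unequal ratios. With each cell thinned to 2000 UMIs the log2 ratio of Ifit1 was 1.71.

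Isg15 and Usp18 act on one modification: ISG15 is a small protein joined to other proteins, and USP18 removes it and also damps the type I receptor. Isg15 had 278 UMIs in 140 cells of Veh against 744 in 237 cells of Doxo, from 112 to 229 CPM, a log2 ratio of 1.03 (0.83 to 1.23). Usp18 had 24 and 112 UMIs, 9.67 and 34.4 CPM, a log2 ratio of 1.81 (1.19 to 2.53). Both members of the role were thus at least 2-fold higher.

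The antiviral enzymes were also at least 2-fold higher where they could be counted, in 3 of 3 members. Oasl2, a relative of the 2-5A synthetases, had 107 and 376 UMIs, 43.1 and 116 CPM, a log2 ratio of 1.42 (1.11 to 1.75). Oas1a, a 2-5A synthetase, had only 3 and 14 UMIs, and Rsad2 (viperin, which makes a chain-terminating nucleotide) 6 and 20. Their log2 ratios of 1.66 and 1.27 had intervals that just held 0 (-0.01 to 4.27 and -0.02 to 2.95). Oas1a is 97.5% identical to Oas1g over 1860 aligned transcript bases, so its few reads are uncertain as well.

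Other induced genes held 3 of the remaining 2-fold differences. Lgals3bp, a secreted galectin-binding glycoprotein, had 454 UMIs in 216 cells of Veh against 1624 in 352 cells of Doxo, 183 and 499 CPM, a log2 ratio of 1.45 (1.30 to 1.60). Ifi44 had 36 and 136 UMIs, 14.5 and 41.8 CPM, a log2 ratio of 1.51 (0.99 to 2.10). Rtp4, a chaperone of membrane receptors, had 132 and 420 UMIs, 53.2 and 129 CPM, a log2 ratio of 1.28 (0.99 to 1.57), which became 0.81 in thinned cells. The other 4 genes of the group were higher by less. Rnf213, a giant ubiquitin ligase, had 91 and 218 UMIs, 36.6 and 67.0 CPM, a log2 ratio of 0.87 (0.51 to 1.24). Xaf1, which favours cell death, had 108 and 247 UMIs, 43.5 and 75.9 CPM, a log2 ratio of 0.80 (0.47 to 1.14). Ifi35 had 102 and 181 UMIs, 41.1 and 55.6 CPM, with a log2 ratio of 0.43 (0.08 to 0.80), and Samd9l, an inhibitor of translation, had 94 and 162 UMIs, 37.9 and 49.8 CPM, with 0.39 (0.02 to 0.78).

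The sensors of RNA and DNA among the members were split. Ddx60, a helicase that assists RNA sensing, was at least 2-fold higher, with 42 and 149 UMIs, 16.9 and 45.8 CPM, a log2 ratio of 1.42 (0.93 to 1.97). Zbp1, a sensor of Z-form nucleic acid, had 68 and 151 UMIs, 27.4 and 46.4 CPM, a log2 ratio of 0.75 (0.34 to 1.20). Trim25, a ubiquitin ligase for RIG-I, had 39 and 77 UMIs, 15.7 and 23.7 CPM, a log2 ratio of 0.58 (0.02 to 1.19) that was -0.33 in thinned cells. The RNA helicases of the RIG-I family moved little. Ifih1 (MDA5) had 88 and 145 UMIs, 35.4 and 44.5 CPM, a log2 ratio of 0.33 (-0.06 to 0.73). Ddx58 (RIG-I) had 112 and 165 UMIs, 45.1 and 50.7 CPM, a log2 ratio of 0.17 (-0.19 to 0.53), and -0.04 in thinned cells. Dhx58 (LGP2) had 20 and 33 UMIs, a log2 ratio of 0.32 (-0.51 to 1.21), and -0.24 in thinned cells. For these 3 helicases the intervals held 0 and no difference was detectable at this depth.

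The transcription factors of the response differed among themselves. Irf7, which amplifies interferon production, had 90 and 251 UMIs, 36.2 and 77.1 CPM, a log2 ratio of 1.08 (0.74 to 1.45). Stat2, a subunit of the complex that binds the ISRE, had 129 and 269 UMIs, 52.0 and 82.6 CPM, a log2 ratio of 0.67 (0.36 to 0.98). Irf9, its DNA-binding partner, had 110 and 187 UMIs, 44.3 and 57.5 CPM, a log2 ratio of 0.37 (0.03 to 0.73). Irf1, the factor most tied to interferon gamma, was lower: 444 UMIs in 180 cells of Veh against 507 in 197 cells of Doxo, 179 and 156 CPM, a log2 ratio of -0.20 (-0.39 to -0.01). Its direction turned, to 0.18, when CAR-like cells were taken as all cells with UMIs of at least 2 CAR markers in place of the cluster. That set holds 788 Veh and 768 Doxo cells. It takes in cells of other classes, and their mix in each library was not compared.

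The guanylate-binding and related GTPases, which attack the membranes around intracellular microbes and are classical targets of interferon gamma, were higher in 3 of 3 members, none by 2-fold. Gbp7 had 105 and 268 UMIs, 42.3 and 82.3 CPM, a log2 ratio of 0.96 (0.63 to 1.30). Gbp2 had 139 and 246 UMIs, 56.0 and 75.6 CPM, a log2 ratio of 0.43 (0.13 to 0.74), with 43 of its Doxo UMIs in 1 cell. Igtp had 71 and 114 UMIs, 28.6 and 35.02 CPM, a log2 ratio of 0.29 (-0.15 to 0.74). The PARP group (Parp9, Parp14 and Dtx3l, which modify proteins with ADP-ribose or ubiquitin) lay near the low end of the roles, with intervals that all held 0. Parp9 had 67 and 115 UMIs, 27.0 and 35.3 CPM, a log2 ratio of 0.38 (-0.06 to 0.85) that was -0.17 in thinned cells. Parp14 had 157 and 251 UMIs, 63.2 and 77.1 CPM, a log2 ratio of 0.28 (-0.01 to 0.58). Dtx3l had 53 and 81 UMIs, 21.3 and 24.9 CPM, a log2 ratio of 0.22 (-0.30 to 0.75), and -0.14 when every cell weighed the same. Parp9 and Dtx3l overlap on opposite strands of chromosome 16, and how strand was used in counting is not given in the sources used here.

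The membrane proteins held most of the UMIs and followed least. Ifitm3, which blocks viral entry, had 4458 UMIs in 343 cells of Veh against 7381 in 412 cells of Doxo, 1795 and 2268 CPM, a log2 ratio of 0.34 (0.28 to 0.39). Bst2 (tetherin, which holds budding virus on the cell) had 1109 UMIs in 282 cells and 1514 UMIs in 354 cells, 447 and 465 CPM, a log2 ratio of 0.06 (-0.05 to 0.17). Bst2 was thus counted well and differed by little in the cluster, but its log2 ratio was 0.19 in thinned cells. In the wider set of CAR marker cells, which takes in other classes, the ratio of Bst2 was 0.63. Ifi27 had 700 and 1071 UMIs, 282 and 329 CPM, a log2 ratio of 0.22 (0.08 to 0.36). Plscr1, a phospholipid scramblase, had 127 UMIs in 99 cells of Veh against 120 in 98 cells of Doxo, 51.1 and 36.9 CPM, a log2 ratio of -0.47 (-0.84 to -0.10). It was lower under each alternative that was run.

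RNA of other cells and the quality of the RNA also differed between the libraries in CAR-like cells, and their part in the members' ratios was not tested, apart from the cells with immune UMIs, left out at the end. The 8 immune markers summed to 566 CPM in Veh and 112 CPM in Doxo, the 6 erythroid markers to 508 and 3.69 CPM, the 5 megakaryocyte markers to 123 and 14.7 CPM, and the 8 osteoblast markers to 7491 and 2149 CPM. The 6 pericyte markers summed to 150 and 235 CPM, and the 8 endothelial markers to 41.5 and 16.6 CPM, with Kdr and Tek at 0 in Veh. Mitochondrial RNA was 2.81% of UMIs in Veh and 4.09% in Doxo. Cells with an immune UMI were those with a UMI of Ptprc, Tyrobp, Fcer1g, Laptm5 or Coro1a, so cells with only Cd74, Lyz2 or S100a8 were kept. Without the cells that held such an immune UMI, 33 members were higher and 12 at least 2-fold higher in Doxo.

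The shift in CAR-like cells was spread over many cells. Each cell was thinned to 2000 UMIs, which left 346 Veh and 408 Doxo CAR-like cells, 17 and 11 shallower cells being left out. The median number of members found in a cell was 4 in Veh and 5 in Doxo. At least 3 members were found in 79.8% of Veh cells (75.1 to 83.9%, exact binomial) and in 93.1% of Doxo cells (90.2 to 95.4%), and at least 5 members in 37.9% and 64.5%. The lowest number of members in a cell was 0 in Veh, in 2 cells, and 1 in Doxo, and the tenth of cells with most members' UMIs held 23.9% of those UMIs in Veh and 20.4% in Doxo. An upper tail was larger too, since at least 10 members were found in 7 Veh cells (2.02%, 0.82 to 4.12%) and in 38 Doxo cells (9.31%, 6.68 to 12.6%). These limits are ranges on a scale without a gap: 48 Veh and 17 Doxo cells held exactly 2 members, and 77 and 51 held exactly 3. Unthinned, 95.04% and 98.3% of cells held at least 3, and 0% of Veh and 0.239% of Doxo cells held no member.

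The same direction was seen without the most abundant genes. Ifitm3, Bst2 and Lgals3bp held 59.9% of the members' UMIs in CAR-like cells. With the other 34 members only, at least 3 were found in 42.2% of thinned Veh cells (36.9 to 47.6%) and in 63.2% of Doxo cells (58.4 to 67.9%), and the median per cell was 2 and 3. At the same 2000 UMIs, at least 3 of all members were found in 11.6% of Veh and 17.3% of Doxo osteoblast-like cells, in 4.96% and 5.02% of bone and cartilage fibroblast-like cells, and in 2.16% of 231 Veh and 2.01% of 199 Doxo chondrocyte-like cells. Each of these classes held members, so the share that free RNA alone would give was not measured.

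**Figure D2:**
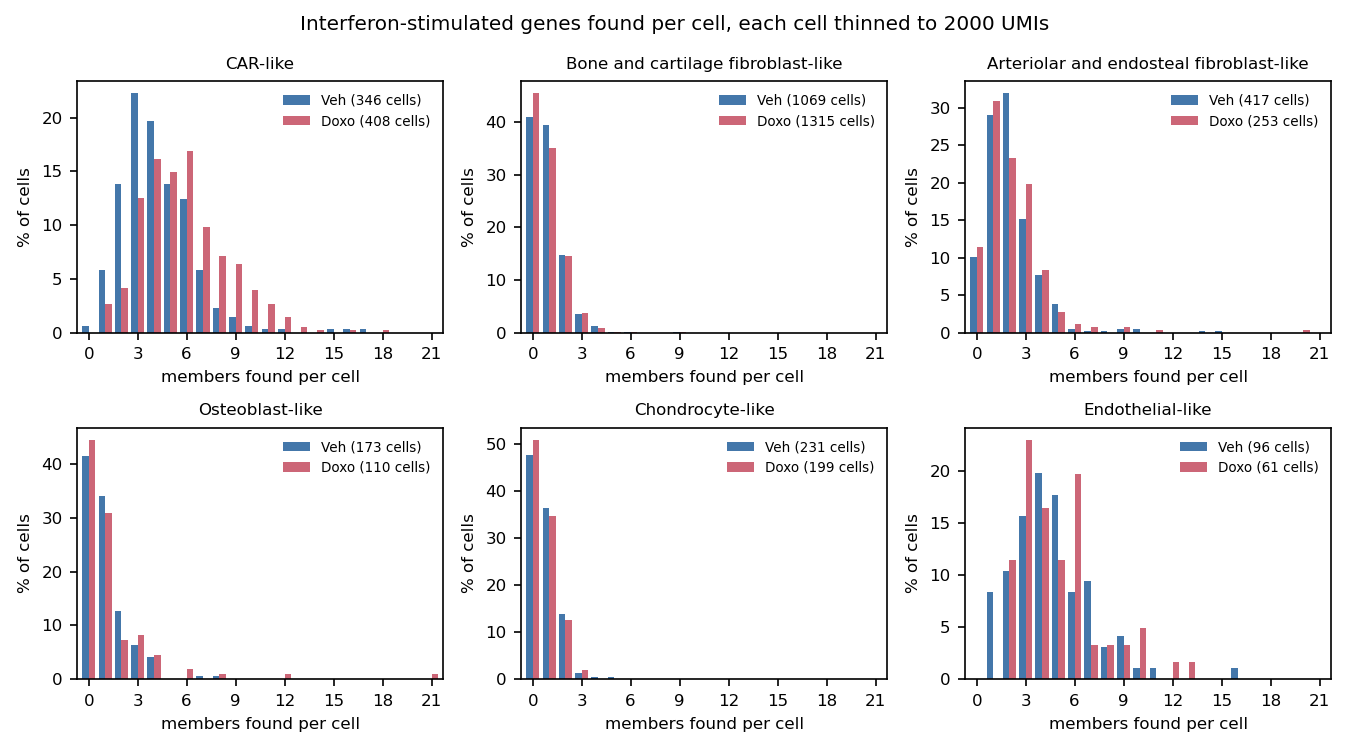
Share of cells (y axis, %) by the number of members found in the cell (x axis), in 6 classes, each cell thinned to 2000 UMIs. Veh is blue and Doxo red. In CAR-like cells the Doxo bars lie to the right of the Veh bars, with medians of 5 and 4, and in both fibroblast-like classes and in chondrocyte-like cells the bars of both libraries lie over each other.

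Within the Doxo CAR-like cells, the cells with an Ifit1 UMI also held more of most other members. These 141 cells had a median of 8597 UMIs and the 278 cells without Ifit1 a median of 6752.5, so levels were compared as CPM. Of the 35 other members with at least 10 UMIs, 34 were higher in the cells with Ifit1 (52.2% of all genes were) and 9 were at least 2-fold higher (2.73% of all genes). The log2 ratios of cells with to cells without Ifit1 were highest for Ifit3b at 2.56, Ifit3 at 2.25 and Usp18 at 1.66, and Isg15 stood at 1.19 (0.98 to 1.41). The members that followed Ifit1 least were Gbp2 at -0.06, Plscr1 at 0.07, Irf1 at 0.09, Ifi27 at 0.11, Lgals3bp at 0.15, Ifi35 at 0.16 (-0.29 to 0.59) and Ifitm3 at 0.16 (0.09 to 0.23). Lgals3bp was thus high in Doxo CAR-like cells with Ifit1 (532 CPM) and without (478 CPM) alike. In Veh, with 31 cells with Ifit1 and 332 without, 28 of 32 members were higher in the cells with Ifit1 (57.6% of all genes were) and 14 at least 2-fold higher (8.91%). In thinned Doxo cells the median number of other members was 7 in the 51 cells that kept an Ifit1 UMI after thinning. It was 5 in the 357 cells without one after thinning. Cells of 1 library are not replicates, and these values describe each library on its own.

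The difference was found in CAR-like cells with and without the cytokine gene Il6. The members summed to 4007 CPM in 29 Veh and 6194 CPM in 14 Doxo CAR-like cells with an Il6 UMI, a log2 ratio of 0.63 (0.50 to 0.76). In the 334 and 405 cells without one they summed to 3879 and 5480 CPM, a log2 ratio of 0.50 (0.46 to 0.54).

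Across the classes, the summed level of all members was high in CAR-like and endothelial-like cells in both libraries and low in bone and cartilage fibroblast-like and chondrocyte-like cells. In CAR-like cells the members summed to 3893 CPM in Veh and 5509 CPM in Doxo, a log2 ratio of 0.50 (0.47 to 0.54), and of 0.63 without the 3 most abundant. In endothelial-like cells the sums were 4099 and 5126 CPM, a log2 ratio of 0.32 (0.24 to 0.41), which was 0.10 without cells that held an immune UMI. The 8 CAR markers summed to 826 CPM in Veh and 2577 CPM in Doxo in this class, and their part in the ratio was not tested. Arteriolar and endosteal fibroblast-like cells stood at 1857 and 1901 CPM (log2 ratio 0.03, -0.02 to 0.09) and chondrocyte-like cells at 372 and 377 CPM (0.02, -0.09 to 0.13). The chondrocyte-like ratio was -0.28 (-0.44 to -0.13) without the 3 members with most UMIs in that class. Bone and cartilage fibroblast-like cells were lower in Doxo, at 484 and 436 CPM (-0.15, -0.21 to -0.09), where the median log2 ratio of all genes was -0.09. Osteoblast-like cells had the largest ratio, from 609 to 1524 CPM (1.32, 1.17 to 1.48).

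**Figure D3:**
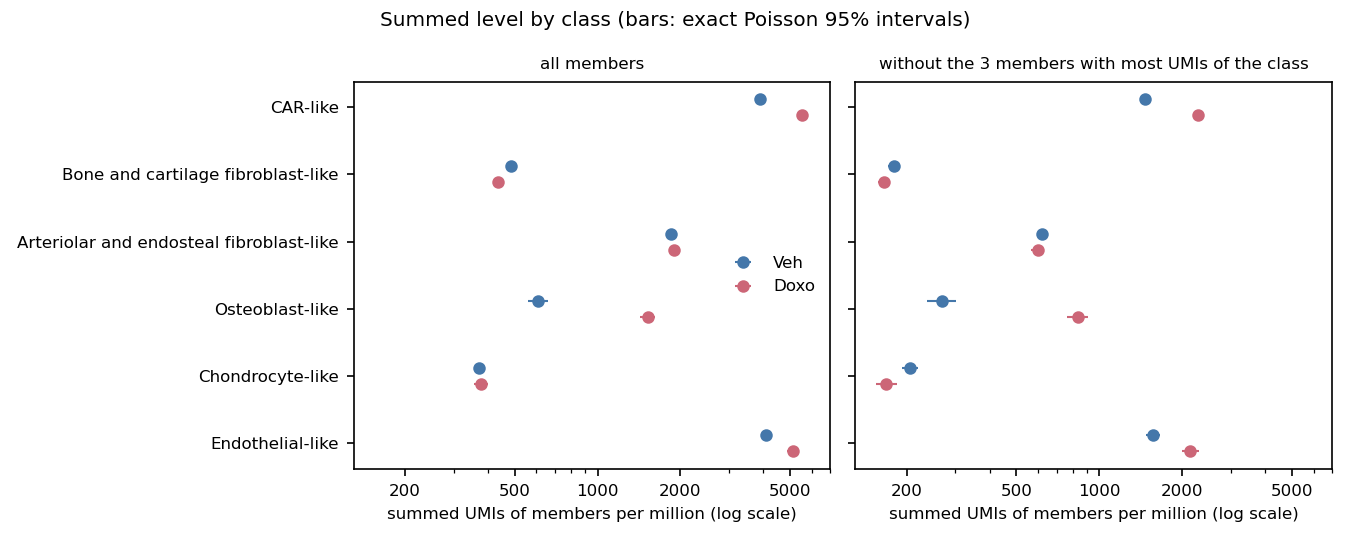
Summed level of the members in CPM (x axis, log scale) in 6 classes of cells, for all members (left) and without the 3 members with most UMIs of each class (right). Bars are exact Poisson 95% intervals, hidden by the points where short. Doxo (red) lies to the right of Veh (blue) in CAR-like, osteoblast-like and endothelial-like cells and to its left in bone and cartilage fibroblast-like cells. On the right side of the figure it also lies to the left in chondrocyte-like cells (205 CPM in Veh and 169 CPM in Doxo).

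The osteoblast-like sum rested on few cells. With at least 10 UMIs were 27 members, of which 25 were higher in Doxo (57.5% of all genes were) and 18 at least 2-fold higher (10.8% of all genes), with 1 at least 2-fold lower (6.08%). Isg15 had 13 and 53 UMIs (log2 ratio 2.60, 1.74 to 3.64), Ifitm3 116 and 311 (2.03), Bst2 36 and 99 (2.06), Lgals3bp 15 and 48 (2.26), Xaf1 6 and 25 (2.58), Gbp7 12 and 23 (1.52) and Rnf213 18 and 25 (1.07). Irf1 went the other way, with 139 and 39 UMIs and a log2 ratio of -1.21 (-1.77 to -0.70). The members' UMIs were concentrated, however. Of the 136 Doxo cells, 7 held at least 10 UMIs of Cxcl12, the defining gene of CAR cells, and these 7 cells held 63.0% of the members' UMIs in the class.

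Those 7 Doxo cells summed to 6901 CPM of members, above the CAR-like class as a whole. They held 15858 CPM of CAR markers, 3962 CPM of pericyte markers and 746 CPM of osteoblast markers, with a median of 1 UMI of the osteoblast gene Bglap. The Doxo CAR-like class held 47876, 235 and 2149 CPM of these markers in the same order. The 7 cells thus had less CAR marker RNA and more pericyte marker RNA than that class. In Veh, 7 of 221 cells had as much Cxcl12, with 1873 CPM of members and 19.8% of the members' UMIs. In the cells with less Cxcl12, 214 in Veh and 129 in Doxo, the members summed to 522 and 655 CPM, a log2 ratio of 0.33 (0.12 to 0.53). In these cells 18 members had at least 10 UMIs, 13 were higher in Doxo (48.1% of all genes were) and 4 were at least 2-fold higher (6.06% of all genes). This remainder was uneven as well. Of its 353 Doxo UMIs of members, single cells held 45, 36, 27 and 21, and the cell with 27 had 8 Cxcl12 UMIs. The highest Veh cell held 24 of 467, and the ratio without such cells was not computed. When the interferon genes were kept in the clustering, the log2 ratio of the osteoblast-like sum was 0.22. The limit of 10 Cxcl12 UMIs was set after these values were seen.

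**Figure D4:**
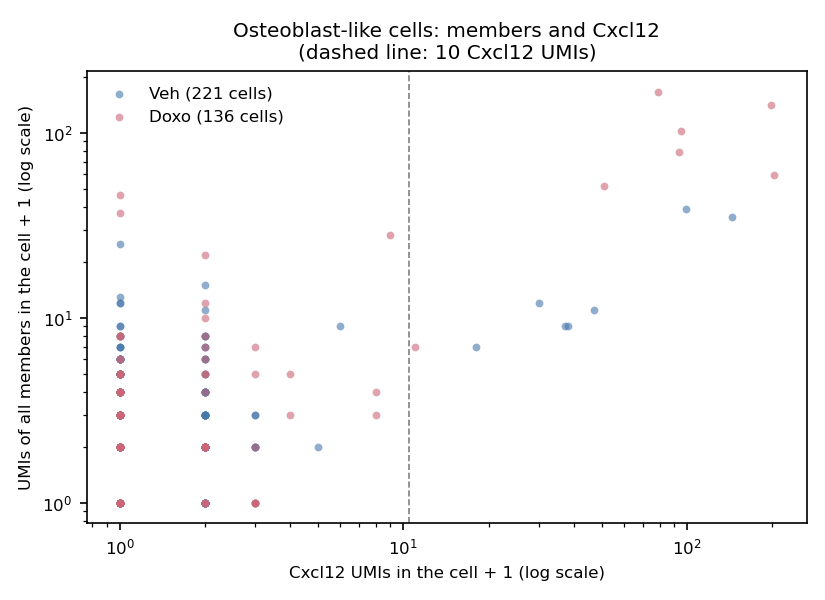
UMIs of all members in each osteoblast-like cell (y axis, plus 1, log scale) against its Cxcl12 UMIs (x axis, plus 1, log scale), 221 Veh cells in blue and 136 Doxo cells in red. To the right of the dashed line are the 7 Veh and 7 Doxo cells with at least 10 Cxcl12 UMIs, and the Doxo cells there hold 63.0% of the members' UMIs of the class.

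In endothelial-like cells, 34 members had at least 10 UMIs, 23 were higher in Doxo (53.7% of all genes were) and 7 at least 2-fold higher (8.50% of all genes), and 2 were 2-fold lower (5.47%). Isg15 had 82 UMIs in 31 cells of Veh against 81 in 24 cells of Doxo, 117 and 231 CPM, a log2 ratio of 0.98 (0.52 to 1.44). Rsad2, scarce in CAR-like cells, had 80 and 91 UMIs here, 114 and 260.0 CPM, a log2 ratio of 1.19 (0.74 to 1.64). Few cells held them: 32 of 103 Veh and 20 of 69 Doxo cells had an Rsad2 UMI, and 86.8% of the Doxo UMIs were in 10 cells, 19 of them in 1 cell. Rtp4 at 1.22, Lgals3bp at 1.06 and Irf7 at 1.00 were the other members with at least 30 UMIs that reached a 2-fold difference. The members 2-fold lower were Ifit2, with 14 and 2 UMIs (-1.53, -4.99 to 0.32), and Zbp1, with 18 and 4 UMIs (-1.04, -3.19 to 0.43). Ifi44 was at -0.94 (-2.24 to 0.08) with 36 and 9 UMIs, against 1.51 in CAR-like cells. Ifit1 had 1 UMI in Veh and 13 in Doxo, in 6 of 69 cells. The CAR markers were also higher in Doxo in this class (826 and 2577 CPM), and their part in these ratios was not tested. At 2000 UMIs, at least 3 members were found in 81.2% of 96 Veh and 88.5% of 61 Doxo endothelial-like cells, and the intervals of these shares overlapped (72.0 to 88.5% and 77.8 to 95.3%).

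The members were mixed in the fibroblast-like classes. In bone and cartilage fibroblast-like cells 33 members had enough UMIs and 9 were higher in Doxo, against 38.4% of all genes, with a median log2 ratio of -0.18 where that of all genes was -0.09. At least 2-fold higher was 1 member (2.10% of all genes), Ifit1, with 2 and 19 UMIs, and 1 was 2-fold lower (5.55%), Gbp2, with 118 and 53 UMIs and a log2 ratio of -1.09 (-1.59 to -0.62). Isg15 had 39 and 24 UMIs there, a log2 ratio of -0.63 (-1.44 to 0.13). In arteriolar and endosteal fibroblast-like cells 34 members had enough UMIs and 18 were higher (48.2% of all genes were), 3 at least 2-fold higher (3.09%) and 3 at least 2-fold lower (5.30%). Lgals3bp, with 129 and 134 UMIs, 30.7 and 64.1 CPM, had a log2 ratio of 1.06 (0.70 to 1.42), and Ddx60, with 21 and 24 UMIs, one of 1.20 (0.29 to 2.12). Igtp, with 91 and 16 UMIs, was lower, at -1.46 (-2.37 to -0.72).

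Ifit1, Ifit3, Ifit3b and Isg15 had lower levels in Doxo arteriolar and endosteal fibroblast-like cells, but 1 Veh cell held many of their UMIs. Ifit1 had 140 UMIs in Veh (24 cells) against 23 in Doxo (16 cells), giving a log2 ratio of -1.57 (-2.30 to -0.96). That cell held 68 of the Veh UMIs, and without it the ratio was -0.62 (-1.39 to 0.05). Ifit3b had 111 UMIs in Veh (15 cells) against 12 in Doxo (9 cells), giving a log2 ratio of -2.15 (-3.20 to -1.34). The same cell held 84, and without it the ratio was -0.14 (-1.28 to 0.86). Ifit3 had 144 UMIs in Veh, 69 of them in that cell, against 46 in Doxo, and its ratio of -0.63 (-1.15 to -0.15) became 0.30 (-0.27 to 0.85). Isg15 had 167 UMIs in Veh (50 cells) against 43 in Doxo (16 cells), giving a log2 ratio of -0.94 (-1.47 to -0.46), and -0.57 (-1.12 to -0.07) without the cell, which held 38 of the Veh UMIs. Ifit2, with 83 UMIs in 69 Veh cells and 35 in 27 Doxo cells, stood at -0.23 (-0.85 to 0.35). Of the 3 members at least 2-fold lower in the class (Ifit1, Ifit3b and Igtp), Ifit1 and Ifit3b were no longer so without this cell. The Veh cell was chosen after its values were seen, and no Doxo cell was left out. In Doxo, 1 cell held 16 of the 46 Ifit3 UMIs and 1 cell held 10 of the 43 Isg15 UMIs. The ratios without the Veh cell are thus trimmed on 1 side only. The share of thinned cells with at least 3 members was 29.0% in Veh (24.7 to 33.6%) and 34.4% in Doxo (28.6 to 40.6%).

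In chondrocyte-like cells 25 members had enough UMIs, 12 were higher in Doxo (55.9% of all genes were), 2 at least 2-fold higher (6.72%) and 3 at least 2-fold lower (6.76%). Irf1 and Ifitm3 had opposite directions here and in CAR-like cells. Irf1 had 127 UMIs in 69 cells of Veh against 360 in 102 cells of Doxo, 26.9 and 117 CPM, a log2 ratio of 2.11 (1.82 to 2.42). Ifitm3 had 147 UMIs in 42 cells of Veh against 17 in 11 cells of Doxo, 31.1 and 5.51 CPM, a log2 ratio of -2.46 (-3.32 to -1.77), and 76.2% of its Veh UMIs were in 10 cells. Xaf1 was scarce, with 13 and 20 UMIs and a log2 ratio of 1.22 (0.16 to 2.37). Isg15 had 10 and 6 UMIs in the class and Ifit1 0 and 1. In the unnamed cluster 21 members had enough UMIs, 10 were higher in Doxo (52.3% of all genes were), 0 at least 2-fold higher (6.57%) and 2 at least 2-fold lower (4.81%).

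**Figure D5:**
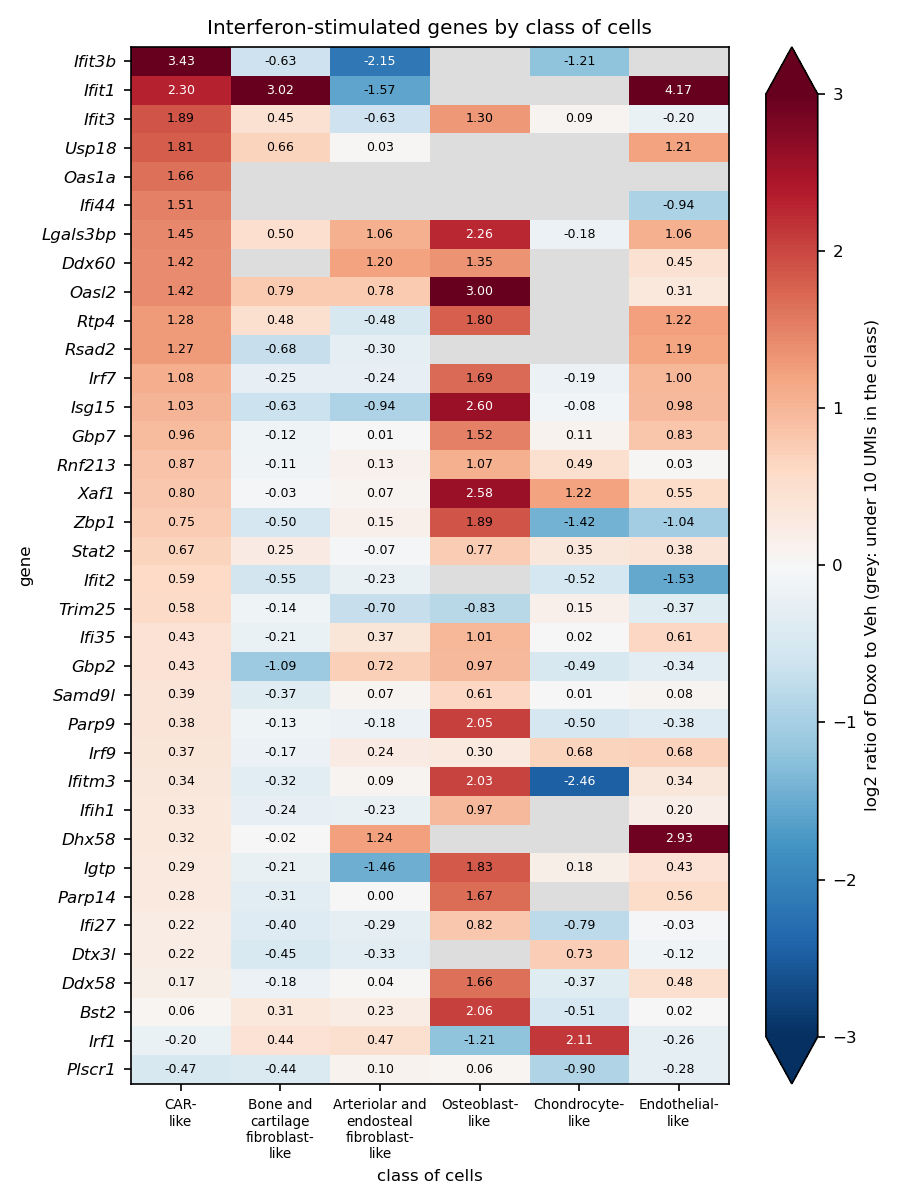
Log2 ratio of Doxo to Veh for each member (y axis, in the order of CAR-like cells) in 6 classes of cells (x axis). Red is higher and blue lower in Doxo, the colour scale ends at 3 in either direction, and grey marks members with under 10 UMIs in the class. The CAR-like column is red down to Bst2, the osteoblast-like column rests largely on 7 Doxo cells, and the chondrocyte-like column shows Irf1 at 2.11 and Ifitm3 at -2.46.

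Genes upstream of the members, from lists of the pathway, were mixed in CAR-like cells. Of the interferon genes themselves, 2 of 11 listed had values, and both had almost no UMIs: Ifna2 had 0 and Ifnab 1 in Veh and 0 in Doxo. Of the receptors, 5 of 6 had at least 10 UMIs and 3 were higher, none by 2-fold, where 54.5% of all genes were higher, 4.95% by 2-fold, and 5.02% were 2-fold lower. Ifngr1 stood highest at a log2 ratio of 0.46 (0.33 to 0.60), Ifnar1 at 0.30 (-0.02 to 0.63) and Il10rb at 0.09, and Ifnar2 was lowest at -0.21 (-0.33 to -0.09) after Ifngr2 at -0.13. Of the 5 listed genes of JAK and STAT signalling described here (Jak1, Jak2, Tyk2, Stat3 and Irf2), 1 was higher and 1 at least 2-fold lower. Only Jak1 and Tyk2 among them belong to the type I pathway as outlined at the start. Jak2 had 205 and 115 UMIs (-1.22, -1.57 to -0.89), Jak1 789 and 581 (-0.83), Stat3 724 and 660 (-0.52) and Irf2 248 and 315 (-0.05). Tyk2 stood at 0.62 (-0.08 to 1.39).

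A list of sensors, adaptors and other genes around the induction of interferon was higher in 11 of 13 genes with enough UMIs. Its median log2 ratio was 0.25 and none was at 2-fold, against 54.5% and 4.95% of all genes. The list also counts Adar and Samhd1, which do not induce interferon. Mavs, the adaptor of RIG-I, stood at 0.88 (-0.06 to 1.96), the RNA editor Adar at 0.66 (0.05 to 1.33) and the nuclease Samhd1 at 0.59 (0.48 to 0.69, with 1060 and 2085 UMIs). Cgas, the sensor of DNA in the cytosol, was lower with 43 and 29 UMIs (-0.95, -1.69 to -0.25), and Traf3 and Myd88 stood at -0.07 and 0.00. Feedback inhibitors were higher in 2 of 7 and lower in 5, with 2 at least 2-fold lower (5.02% of all genes) and a median of -0.58. Tnfaip3 had 124 and 65 UMIs (-1.32, -1.78 to -0.88), Ptpn2 140 and 90 (-1.03, -1.43 to -0.64) and Socs3 1866 and 1537 (-0.67, -0.77 to -0.57). Socs1 at 0.18, Pias1 at 0.02 and Isg20 at -0.35 had intervals that held 0. Isg20, an exonuclease, was counted in this list although it is no inhibitor of interferon signalling. Usp18, a member and also a feedback inhibitor, stood at 1.81.

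A second list of 71 interferon-induced genes that are no members was also mostly higher in Doxo. Of these, 57 passed the limit of 10 UMIs, 47 were higher in Doxo (54.5% of all genes were), 9 at least 2-fold higher (4.95%) and 2 at least 2-fold lower (5.02%), with a median log2 ratio of 0.48. Ifi27l2a had 12 and 105 UMIs (2.69, 1.87 to 3.74), Trim34a 19 and 79 (1.64, 0.93 to 2.47) and the chemokine gene Cxcl9 404 and 1223 (1.21, 1.04 to 1.37). Its neighbour in function Cxcl10, which draws the same T cells, went the other way with 909 and 518 UMIs (-1.20, -1.36 to -1.04). Ifitm1 stood at -0.73 (-1.18 to -0.29) and Ly6a at -0.65 (-1.21 to -0.09). The genes of MHC class I and the immunoproteasome, which present peptides to T cells, were higher in 10 of 14, none by 2-fold, with a median of 0.17, where 54.5% of all genes were higher and their median was 0.05. H2-Q4 at 0.53, Psme1 at 0.44 and Tap1 at 0.41 stood highest, and H2-Q7 at -0.25, Tap2 at -0.18 and H2-K1 at -0.08 lowest. MHC class I genes resemble each other closely, so reads may be split between them.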

How the data were processed

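Single-cell 3′ RNA libraries of bone cells from mice given vehicle (Veh) or doxorubicin (Doxo) were used, 1 library each. The authors aligned reads with Cell Ranger (GRCm38/mm10 and Partek are also in the submitters' processing notes; versions not given in the sources used here). The deposited values are log2 values per gene and cell: UMIs scaled to a sum of 1000000, put on a log scale, scaled to 1000000 again, and put on a log2 scale. These steps were read from the values and inverted. Of nonzero values up to 50 UMIs, 99.9% came within 0.05 of a whole number in both libraries. For 27 symbols they did not, none of them a member. No other column of per-sample values was left unused (0).

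After filters on genes (200 to 10000), UMIs (100 to 100000) and mitochondrial UMIs (up to 10%), cells were clustered in Seurat 5.3.0 (R 4.3.3) with 35 principal components of 2000 variable genes and a resolution of 0.1, leaving out the listed interferon genes. The endothelial cluster was set aside and the rest clustered again. A cluster was named from at least 3 markers found in at least 10% of its cells. Doublets were kept.

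UMIs were summed per class, adding 0.5 UMI before taking the log2 ratio of Doxo to Veh, exact Poisson intervals for levels, exact binomial intervals for shares and exact conditional binomial intervals for ratios. The CAR-like depth was 2483024 (Veh) and 3254904 UMIs (Doxo). A difference was called from its size, 2-fold, among genes with at least 10 UMIs in the class, because 1 library per condition allows no test. The calculation was tested on simulated data. Full values are given for members with at least 100 UMIs in CAR-like cells or a ratio at or below 0, for members in other classes with at least 30 UMIs and a 2-fold difference, and for the 3 highest and 3 lowest genes of each pathway list with at least 30 UMIs. Other members and genes were named after their values were seen. The members and lists were chosen with earlier results of these data known, and some items of the pathway lists are not reported here. Promoters are from RefSeq (GRCm38.p6), gene positions from GENCODE M21, and the software was scipy 1.17.1, numpy 2.4.6, pandas 2.3.3, Biopython 1.88 and matplotlib 3.10.9 in Python 3.11.15.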

Additional observations from a re-analysis of the deposited data

Results flagged for a closer look

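The summed level of the members moved in opposite directions in different classes of cells. The log2 ratio of Doxo to Veh was 0.50 in CAR-like cells, 1.32 in osteoblast-like cells and 0.32 in endothelial-like cells, and -0.15 in bone and cartilage fibroblast-like cells. The osteoblast-like ratio was 0.33 without the cells rich in Cxcl12 and 0.22 with interferon genes kept in the clustering. Of the 353 Doxo UMIs left without the cells rich in Cxcl12, 1 cell held 45. The endothelial-like ratio was 0.10 without cells with an immune UMI. With 1 library per treatment, the difference between classes was not tested.

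The genes Ifit1 and Ifit3b were higher in Doxo CAR-like cells, and each was at least 2-fold lower in at least 1 other class. Ifit1 stood at -1.57 in arteriolar and endosteal fibroblast-like cells, and Ifit3b at -2.15 in the same cells and at -1.21 in chondrocyte-like cells. Within that fibroblast-like class, 68 of the 140 Veh UMIs of Ifit1 and 84 of the 111 Veh UMIs of Ifit3b were in 1 cell, without which the ratios were -0.62 and -0.14. In chondrocyte-like cells Ifit3b had 19 Veh and 5 Doxo UMIs, and the interval of the ratio held 0 (-3.09 to 0.16). These differences between classes were not tested.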

How the results depend on the processing

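The class sums, and in CAR-like cells the counts and ratios of members and the share of cells with at least 3 members, were recomputed. The alternatives were chosen with the design, and 2 after seeing the data (osteoblast-like cells without those with at least 10 Cxcl12 UMIs, and arteriolar and endosteal fibroblast-like cells without the Veh cell with most Ifit1 UMIs). Some alternatives were run on only part of these values. The comparison of cells with and without Ifit1, the pathway lists and the promoter shares were not recomputed. The summed ratios that changed sign were 2 that were close to 0 as reported, given below for arteriolar and endosteal fibroblast-like and for chondrocyte-like cells. Between 27 and 35 members were higher and between 9 and 17 at least 2-fold higher in Doxo CAR-like cells. The counts were 27 and 9 of 33 with enough UMIs with each cell thinned to 2000 UMIs. They were 35 and 17 of 36 in the wider set of 788 Veh and 768 Doxo cells with CAR markers. The wider set takes in cells of other classes, and their mix in each library was not compared. Of 427 values of single members in CAR-like cells under alternatives, 419 kept the sign of the ratio reported. The other 8 belonged to Ddx58, Dhx58, Dtx3l, Irf1, Parp9 and Trim25.

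The summed ratios moved as follows, and the cause was not tested. In osteoblast-like cells the log2 ratio was 0.66 with thinned cells, 0.58 with every cell weighing the same, 0.22 with interferon genes kept in the clustering, 1.08 under a stricter cell filter, 1.16 without cells with an immune UMI, 1.64 without the 3 members with most UMIs, and 0.33 without the cells rich in Cxcl12. In bone and cartilage fibroblast-like cells it was -0.078 with thinned cells, -0.079 with equal weights and -0.056 centred on the median of all genes. In arteriolar and endosteal fibroblast-like cells it was 0.12, 0.10 and, without the 3 members with most UMIs, -0.047, and 0.12 without the Veh cell with most Ifit1 UMIs. In CAR-like cells it was 0.45 centred on the median of all genes and 0.63 without the 3 members, in chondrocyte-like cells -0.28 without them, and in endothelial-like cells 0.46 without them, 0.23 without the 5% of cells with most UMIs and 0.10 without cells with an immune UMI. With a limit of 2 members per cell in place of 3, 93.6% of Veh and 97.3% of Doxo CAR-like cells passed, and with 5 members 37.9% and 64.5%.

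With 1 library per treatment, depth limits members with few UMIs (Ifit2, Oas1a, Rsad2 and Dhx58), and a replicate to leave out was lacking. No paired analysis was possible because each treatment has 1 library.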
